A study of Homo sapiens with 54 samples.

Results

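PEO1 is an established line of high-grade serous ovarian carcinoma that the labels class as platinum sensitive, and its response to 24 h of carboplatin is described here. The 6 libraries were all those labelled PEO1 at 24 h and PEO1 untreated, 3 of each, out of 54 in the study. The 24 h cultures received 80 µM carboplatin for 24 h and came from passages 12 to 14. The untreated cultures came from passages 9, 10 and 11; their label puts them at 0 h, and the series text speaks of cells given vehicle and collected at 24 h. The series text also writes the dose in mM where the labels' protocol has µM. No passage occurs in both groups, so passage and treatment cannot be told apart. The libraries of a group came from experiments on 3 different days per the series text, and 1 cell line stands behind all 6.

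The study also holds 8 h of the same dose in PEO1 and the same times in 5 other lines. Used here beside the 6 libraries are 2 PEO1 libraries at 8 h, the 3 untreated libraries and 1 library at 24 h of PEO4, the platinum-resistant line from the same patient, and 3 untreated and 3 libraries at 24 h of PEA2, a resistant line of another patient. Other libraries of these groups listed fewer than 12000 genes above 0 and were set aside. Values are TPM, which divide the reads of a gene by its length and scale them to a fixed total, rescaled so that the typical gene is level across libraries ("rescaled TPM"). A change is a difference of log2(rescaled TPM + 1), given with the standard error (SE) of the limma fit, and it understates the change of weakly expressed genes. A gene was called at a Benjamini-Hochberg adjusted p under 0.05.

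Carboplatin reacts with DNA and links bases within and between strands. These adducts stall replication forks and RNA polymerase, and cells answer with checkpoint signalling, repair by nucleotide excision and homologous recombination, and, where the damage persists, apoptosis. DNA damage is also known to activate stress kinases and NF-kB, a family of dimeric transcription factors held in the cytoplasm by inhibitors such as NFKBIA until these are degraded, after which genes of inflammation and survival are transcribed. In ovarian carcinoma the NF-kB targets CXCL8 and IL6 are known as secreted cytokines that also act back on the tumour cells.

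After 24 h, 58 of 76 oxidative phosphorylation genes, 57 of 79 ribosomal protein genes and 13 of 31 NF-kB targets and cytokines were called higher in PEO1, CXCL8 and IL6 among the last. The first 2 of these lists were also mostly higher at 8 h, with 69 and 77 members called. Called lower at 24 h were 8 of 17 genes of the Müllerian and serous lineage and 14 of 28 long genes of adhesion and signalling. Of 18013 genes tested, 6955 were called (38.6%), 2827 of them higher (15.7%) and 4128 lower (22.9%). Changes of at least 1 on the log2 scale were called for 2305 genes upward and 3563 downward, and of at least 3 for 90 upward and 413 downward. The 3 treated values did not overlap the 3 untreated ones in 9437 genes (52.4%). The median change of all genes was -0.12. The split depends on the scaling: on TPM without rescaling 1045 genes were higher and 5333 lower, with a median of -0.48. With the 12 sparse libraries of other groups kept in the model, which widens the common spread, 614 genes were called, 50 higher and 564 lower.

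**Figure D1:**
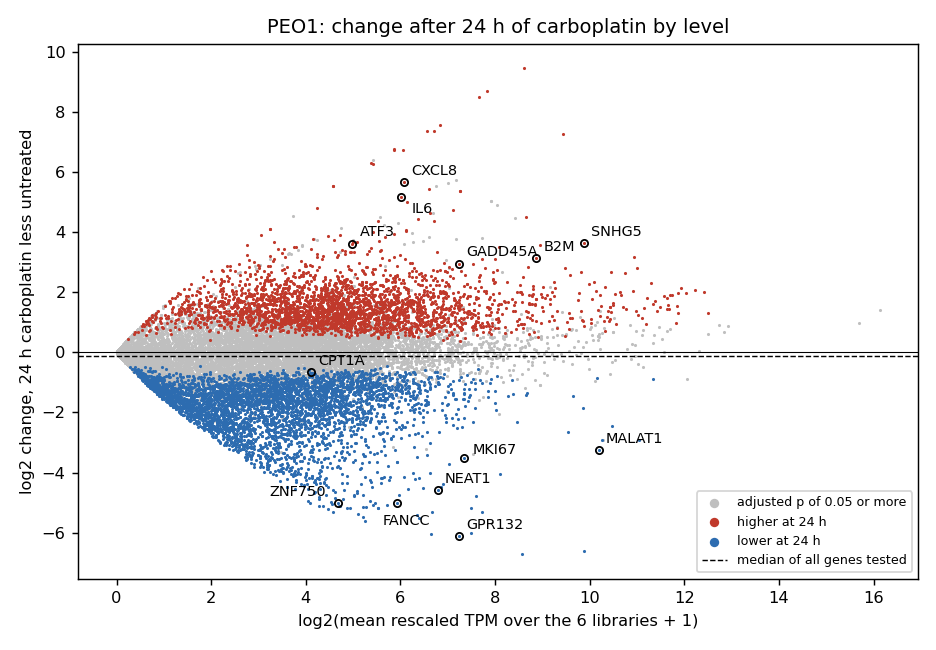
Change of each gene tested at 24 h (vertical axis, log2 scale) against its mean level over the 6 PEO1 libraries (horizontal axis, log2 scale), with called genes coloured by direction and the median of all genes dashed. CXCL8 and IL6 lie at 5.68 and 5.20, GPR132 lies at -6.12, and CPT1A, at -0.66, was not called.

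The libraries of the groups differed in more than single genes. Cytosolic ribosomal protein genes took 12.02 to 14.7% of TPM in untreated and 22.2 to 25.1% in 24 h libraries, and the structural RNAs RMRP and RPPH1 8.80 to 13.9% against 15.7 to 21.2%. Between 14084 and 15911 genes were listed above 0 in untreated libraries and between 15101 and 15545 at 24 h. All 8 ovarian epithelial markers, among them EPCAM, PAX8 and the keratins KRT7, KRT8 and KRT18, were above 0 in all 6 libraries. The fibroblast genes COL1A2, COL3A1, DCN, LUM and POSTN and the lymphocyte genes CD3D, CD3E and MS4A1 were listed at 0 in all 6. Other such markers were present. The fibroblast gene THY1 was at 27.9 to 65.5 rescaled TPM over the 6 libraries, and the leukocyte gene CD68 at 19.4 to 65.7. COL1A1 and CD14 were also above 0 in all 6. The summed level of 10 endothelial genes was 38.0 to 82.3 in untreated and 5.42 to 8.45 in 24 h libraries, that of 10 fibroblast genes 41.6 to 72.3 against 31.0 to 35.6, and that of 12 leukocyte genes 47.1 to 85.7 against 21.2 to 45.8, in rescaled TPM. In every library THY1 made up most of the fibroblast sum and CD68 most of the leukocyte sum. The depth of the libraries is unknown from TPM, and values carry no counting error. The part of these differences in the results that follow was not tested. Fewer cells of a kind and less RNA per cell cannot be told apart in such bulk samples.

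The cytokine genes are shown first with the sequence before their start sites, where NF-kB is known to bind. The 250 bases before the RefSeq gene start (build GRCh38.p14, plus strand in each case) were searched on both strands for the letters GGNNTTTCC, one form of the NF-kB site, and matches are in capitals. CXCL8 lies at chr4:73740319-73740568, IL6 at chr7:22726950-22727199 and TNFAIP3 at chr6:137867009-137867258.
CXCL8: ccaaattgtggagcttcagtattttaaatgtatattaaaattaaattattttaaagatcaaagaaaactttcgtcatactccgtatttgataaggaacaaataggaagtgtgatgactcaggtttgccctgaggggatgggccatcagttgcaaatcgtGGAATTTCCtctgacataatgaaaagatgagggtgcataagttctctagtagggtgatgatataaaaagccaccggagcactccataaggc
IL6: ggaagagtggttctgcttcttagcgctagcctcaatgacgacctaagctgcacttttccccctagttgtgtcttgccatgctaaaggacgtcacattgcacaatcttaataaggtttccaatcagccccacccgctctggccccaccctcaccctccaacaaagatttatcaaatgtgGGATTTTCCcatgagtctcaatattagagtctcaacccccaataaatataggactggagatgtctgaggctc
TNFAIP3: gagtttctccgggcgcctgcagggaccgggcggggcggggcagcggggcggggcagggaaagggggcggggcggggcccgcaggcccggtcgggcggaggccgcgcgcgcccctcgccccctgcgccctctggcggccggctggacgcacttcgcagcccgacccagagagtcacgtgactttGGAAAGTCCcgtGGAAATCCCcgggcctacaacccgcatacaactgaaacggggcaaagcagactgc
The match starts 91 bases upstream in CXCL8 and 72 bases upstream in IL6, and TNFAIP3 has matches 67 and 55 bases upstream. Of all 27305 promoters of this length, 5.48% hold the letters. Among the 25 of 31 genes of the NF-kB list with a promoter in the table, 17 do. The list names NF-kB targets, so this share follows from its choice. The letters do not separate the called members from the others. CXCL2, CXCL3, CXCL5, CXCL10, CCL20 and LTB hold them and were not called at 24 h. TNF, IL1A, IL1B, TRAF1, SOD2 and PTGS2 were called without them. A match describes the letters and not binding in these cells.

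CXCL8, the neutrophil-attracting chemokine also known as interleukin 8, had 2.09, 0.683 and 2.19 rescaled TPM in the untreated libraries and 158, 112 and 122 at 24 h. All treated libraries lay far above all untreated ones, and the change was 5.68 ± 0.42 (SE; adjusted p = 7.6e-11). IL6, a cytokine that signals through STAT3, was at 3.10, 0 and 8.15 in untreated cells and at 124, 97.1 and 149 after treatment. The groups again did not overlap, and the change was 5.20 ± 0.60 (adjusted p = 1.39e-07). CXCL1, a chemokine that shares a receptor with CXCL8, went from 0, 5.15 and 3.30 to 30.2, 14.8 and 29.4 (change 3.05 ± 0.59, adjusted p = 0.000167). BIRC3, an inhibitor of apoptosis that NF-kB is known to induce, went from 0.785, 1.55 and 4.51 to 11.2, 14.9 and 12.9 (change 2.25 ± 0.36, adjusted p = 1.58e-05). These 4 genes were also called with the sparse libraries kept.

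Inhibitors of the pathway rose as well. NFKBIA, which holds NF-kB in the cytoplasm, read 68.5, 66.0 and 72.5 in the untreated libraries and 206, 182 and 189 at 24 h, without overlap (change 1.46 ± 0.18, adjusted p = 2.68e-07). TNFAIP3, the ubiquitin-editing enzyme A20 that shuts off NF-kB signalling, read 4.36, 6.68 and 6.84 and then 30.3, 20.5 and 37.6 (change 2.11 ± 0.37, adjusted p = 5.1e-05). The adhesion receptor ICAM1 read 22.3, 20.9 and 25.6 and then 48.7, 43.8 and 62.6; its change of 1.13 ± 0.28 (adjusted p = 0.00213) was not called without rescaling, where it was 0.59. NFKBIA, TNFAIP3 and ICAM1 were picked after their values were seen. Of all 31 genes on the list, 13 were called higher and 5 lower, with a median change of 0.86 against -0.12 for all genes, and without rescaling 9 were higher and 5 lower, with a median of 0.39. Among those called lower on rescaled TPM were TNFAIP2 (change -1.26 ± 0.38, adjusted p = 0.00922), IL1A (-1.61 ± 0.61, adjusted p = 0.0385) and LIF (-1.05 ± 0.34, adjusted p = 0.0153). The count of 5 lower fell to 2 without untreated replicate 2, and to 3 with a pseudocount of 0.1, without untreated replicate 3 or without any one treated library. With the sparse libraries kept, 5 were higher and none lower.

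Growth arrest and stress genes rose next. ATF3, a transcription factor induced by DNA damage and by the integrated stress response, was at 1.84, 6.24 and 4.08 rescaled TPM in untreated cells and at 56.2, 52.8 and 62.6 after 24 h. Its treated libraries were close together and all above the untreated ones, and the change was 3.62 ± 0.39 (adjusted p = 5.23e-08). GADD45A, which binds PCNA and CDK1 and takes part in the G2 checkpoint, was at 42.8, 23.4 and 35.8 and then at 266, 215 and 319 (change 2.96 ± 0.33, adjusted p = 9.64e-08). PMAIP1, the proapoptotic BH3-only protein NOXA, was at 18.2, 7.18 and 12.9 and then at 94.4, 82.7 and 84.1 (change 2.76 ± 0.41, adjusted p = 7.28e-06). In each of these 3 genes the lowest treated library exceeded the highest untreated one. TXNIP, which binds thioredoxin and limits glucose uptake, went from 8.19, 15.4 and 6.13 to 62.4, 60.5 and 65.7 (change 2.64 ± 0.28, adjusted p = 3.66e-08).

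The integrated stress response list, whose genes are known to follow phosphorylation of the translation factor eIF2 and the factor ATF4, had 12 of 29 genes higher and 3 lower; without rescaling it had 3 higher and 3 lower. MTHFD2, a mitochondrial folate enzyme, rose from 33.6, 34.2 and 66.3 to 229, 218 and 183 (change 2.27 ± 0.33, adjusted p = 5.06e-06). DDIT3, the factor CHOP, rose from 25.4, 30.9 and 47.5 to 112, 104.7 and 119 (change 1.71 ± 0.45, adjusted p = 0.00332). The asparagine synthetase gene ASNS rose by 1.70 ± 0.41 (adjusted p = 0.00178), a call lost without rescaling, where the change was 1.15. SLC7A5, a large neutral amino acid transporter on the same list, fell from 189.7, 290.5 and 124 to 40.4, 44.4 and 46.0 (change -2.10 ± 0.36, adjusted p = 3.79e-05), so the list did not move one way.

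Of the p53 target list, 11 of 33 genes were called higher and 4 lower, and without rescaling 3 were higher and 5 lower. The higher count was 5 without treated replicate 1 or 2, and 7 without treated replicate 3 or untreated replicate 2. RRM2B, the p53-inducible ribonucleotide reductase subunit, was at 2.85, 2.04 and 2.90 in untreated and 14.1, 11.9 and 9.26 in treated libraries (change 1.82 ± 0.39, adjusted p = 0.00051). CDKN1A, the cyclin-dependent kinase inhibitor p21 and a classical p53 target, was at 6.68, 1.64 and 0.875 and at 7.31, 5.49 and 8.73. Its groups overlapped through the first untreated library, and the change of 1.26 ± 0.63 had an adjusted p of 0.113; without that library it was 1.85, with an adjusted p of 0.0325. MDM2, the ubiquitin ligase that degrades p53, was at 18.9, 8.30 and 15.8 and at 23.6, 26.9 and 23.8 (change 0.82 ± 0.30, adjusted p = 0.0285). That call ended without untreated replicate 2 (change 0.49, adjusted p = 0.239), without any of the treated libraries (adjusted p from 0.0538 to 0.0869) and without rescaling (change 0.29).

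Other genes of this group fell. POLH, the translesion polymerase that bypasses platinum adducts, fell from 23.8, 19.3 and 16.8 to 4.19, 3.66 and 3.74 (change -2.10 ± 0.26, adjusted p = 5.51e-07). TP53INP1, a p53-induced proapoptotic protein, fell from 6.64, 3.58 and 12.3 to 0.641, 0.616 and 0.823 (change -2.20 ± 0.51, adjusted p = 0.00119). GDF15, a secreted p53 and stress target, was listed at 0 in 4 of the 6 libraries and was not called.

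Among genes of apoptosis CYCS, the cytochrome c that activates the apoptosome after its release from mitochondria, rose from 14.7, 11.9 and 21.97 to 79.8, 88.5 and 69.1 (change 2.26 ± 0.44, adjusted p = 0.000185). BCL2L1, which encodes the antiapoptotic BCL-XL, fell from 89.8, 91.5 and 61.2 to 42.5, 37.6 and 39.1 (change -0.98 ± 0.21, adjusted p = 0.00044). Of 20 genes of death receptors and caspases, 6 were higher and 1 lower, and 3 and 1 without rescaling. Of 16 genes of the BCL2 family, PMAIP1 was the only 1 called higher and 3 were lower. Without rescaling the counts were 2 and 4. Of all genes tested 15.7% were higher and 22.9% lower.

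Repair genes moved in both directions, as did all genes tested, of which 15.7% were higher and 22.9% lower. The homologous recombination list had 9 of 22 genes higher and 3 lower, against 3 and 4 without rescaling. EXO1, the nuclease that resects breaks, rose from 18.3, 13.5 and 28.3 to 69.0, 70.4 and 77.3 (change 1.86 ± 0.29, adjusted p = 1.03e-05). RAD51C, which acts in strand exchange, rose from 5.49, 1.96 and 1.96 to 16.3, 16.0 and 16.8 (change 2.17 ± 0.55, adjusted p = 0.00258; 1.75 without rescaling, adjusted p = 0.0556). XRCC3, the partner of RAD51C in its complex, fell from 95.6, 102.8 and 54.3 to 23.5, 26.8 and 23.8 (change -1.68 ± 0.29, adjusted p = 3.75e-05). Of the central genes, BRCA1 (change 0.14 ± 0.31) and BRCA2 (0.53 ± 0.39) were not called, and the change of BRCA1 turned negative without rescaling (-0.41).

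In the Fanconi anaemia pathway, which unhooks crosslinks between strands, 4 of 23 genes were higher and 5 lower, and 2 and 6 without rescaling; fitted to the 2 groups alone 8 were higher and 4 lower, and to the PEO1 libraries alone 7 and 4. The first counts lie near the shares of all genes tested, 15.7% higher and 22.9% lower. FANCC, a subunit of the core complex, had 94.9, 154 and 102.2 rescaled TPM in untreated cells and 1.94, 2.89 and 2.92 at 24 h. The groups were far apart, and the fall of FANCC (-5.02 ± 0.32, adjusted p = 8.34e-12) was also called with the sparse libraries kept. UBE2T, the conjugating enzyme that works with the core complex, rose in the same cells from 25.1, 19.1 and 42.9 to 188, 217 and 155 (change 2.71 ± 0.53, adjusted p = 0.000176). FANCA fell from 30.0, 29.7 and 23.3 to 7.59, 9.21 and 6.72 (change -1.70 ± 0.29, adjusted p = 4.72e-05), and the nuclease scaffold SLX4 fell from 6.02, 6.55 and 3.39 to 0.630, 0.943 and 0.633 (change -1.83 ± 0.38, adjusted p = 0.000358).

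Nucleotide excision repair, which removes links within a strand, had 10 of 24 genes higher and 4 lower, 7 and 7 without rescaling, and 6 and 3 without untreated replicate 2. RPA3, the smallest subunit of the single-strand binding protein, was at 0, 5.89 and 5.88 and then at 34.5, 34.3 and 26.7 (change 3.17 ± 0.58, adjusted p = 9.67e-05). UVSSA, which serves repair of transcribed strands, fell from 14.6, 18.2 and 11.8 to 2.24, 2.70 and 2.31 (change -2.20 ± 0.36, adjusted p = 2.69e-05). ERCC1, the nuclease subunit often studied in platinum response, was at 287, 246 and 206 and at 154, 147 and 195 and was not called (change -0.57 ± 0.39, adjusted p = 0.27), but on TPM without rescaling its fall was called (-1.13, adjusted p = 0.0458). In mismatch repair 7 of 9 genes were higher and none lower, against 2 higher and 1 lower without rescaling; 3 were higher without untreated replicate 2 and 4 without untreated replicate 1 or treated replicate 3. Of the transporters, the copper importer SLC31A1 (change 0.67 ± 0.30) and the exporters ATP7A (0.17 ± 0.28) and ATP7B (-0.82 ± 0.36) were not called, while ABCC1, a drug efflux pump, fell from 31.4, 42.4 and 21.8 to 5.60, 5.52 and 6.68 (change -2.20 ± 0.26, adjusted p = 2.58e-07).

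Genes of S phase were mostly higher. PCNA, the sliding clamp of replication, was at 103.3, 51.5 and 108 in untreated libraries and at 393, 468 and 387 at 24 h, with no overlap (change 2.30 ± 0.34, adjusted p = 6.9e-06). CCNE2, a cyclin of S phase entry, went from 7.63, 6.27 and 12.99 to 35.9, 43.1 and 37.8 (change 2.06 ± 0.35, adjusted p = 4.39e-05), whereas CCNE1, at 9.06, 15.5 and 3.32 and 13.2, 12.9 and 12.02, overlapped and was not called. The catalytic subunit of polymerase epsilon, POLE, fell from 36.2, 37.5 and 27.4 to 10.8, 11.8 and 13.3 (change -1.41 ± 0.26, adjusted p = 0.000112), and its small partner POLE2 was at 0, 0 and 2.99 and then at 12.7, 11.7 and 11.2 (change 3.02 ± 0.62, adjusted p = 0.000343). Thymidylate synthase, TYMS, fell from 67.8, 45.2 and 62.8 to 30.3, 28.2 and 24.5 (change -1.04 ± 0.31, adjusted p = 0.00791). Of 46 G1/S and replication genes, 27 were higher and 5 lower, with a median of 0.72; without rescaling the counts were 7 and 5. Of 60 replication-dependent histone genes, which are uncertain because of near-identical copies, 12 were higher and none lower, and 9 and 5 without rescaling. Fitted to the 2 groups alone 37 of 58 were higher, without untreated replicate 2 only 6 and without treated replicate 1 only 7.

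Mitotic genes did not move together. MKI67, the proliferation antigen Ki-67, had 343, 292 and 255 rescaled TPM in untreated and 19.9, 25.3 and 30.2 in treated libraries, a fall of large size (change -3.52 ± 0.30, adjusted p = 1.13e-09). PLK1, the kinase that drives mitotic entry, fell from 33.9, 53.1 and 53.8 to 17.05, 16.1 and 16.1 (change -1.43 ± 0.25, adjusted p = 6.21e-05), and CDC20, an activator of the anaphase-promoting complex, from 115, 141 and 111 to 78.3, 64.3 and 64.5 (change -0.81 ± 0.21, adjusted p = 0.00244). The mitotic kinase CDK1 rose from 35.1, 24.8 and 41.2 to 146, 153 and 133 (change 2.09 ± 0.34, adjusted p = 1.75e-05), as did the spindle checkpoint gene MAD2L1, from 12.6, 0.825 and 16.5 to 122, 146 and 111 (change 4.07 ± 0.59, adjusted p = 4.3e-06). CCNB1, the cyclin partner of CDK1, was at 61.5, 44.6 and 92.9 and at 122, 124 and 120.0 (change 0.93 ± 0.32, adjusted p = 0.0206); its call ended without untreated replicate 1 (adjusted p = 0.0533), untreated replicate 2 (0.139) or treated replicate 2 (0.0527), and without rescaling (change 0.38). Of 52 genes of the G2/M list, 11 were higher and 9 lower, near the shares of all genes tested (15.7% and 22.9%). Without rescaling 3 were higher and 10 lower. The counts were 6 and 9 without untreated replicate 2, 6 and 7 without treated replicate 2, and 7 and 7 without untreated replicate 1.

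**Figure D2:**
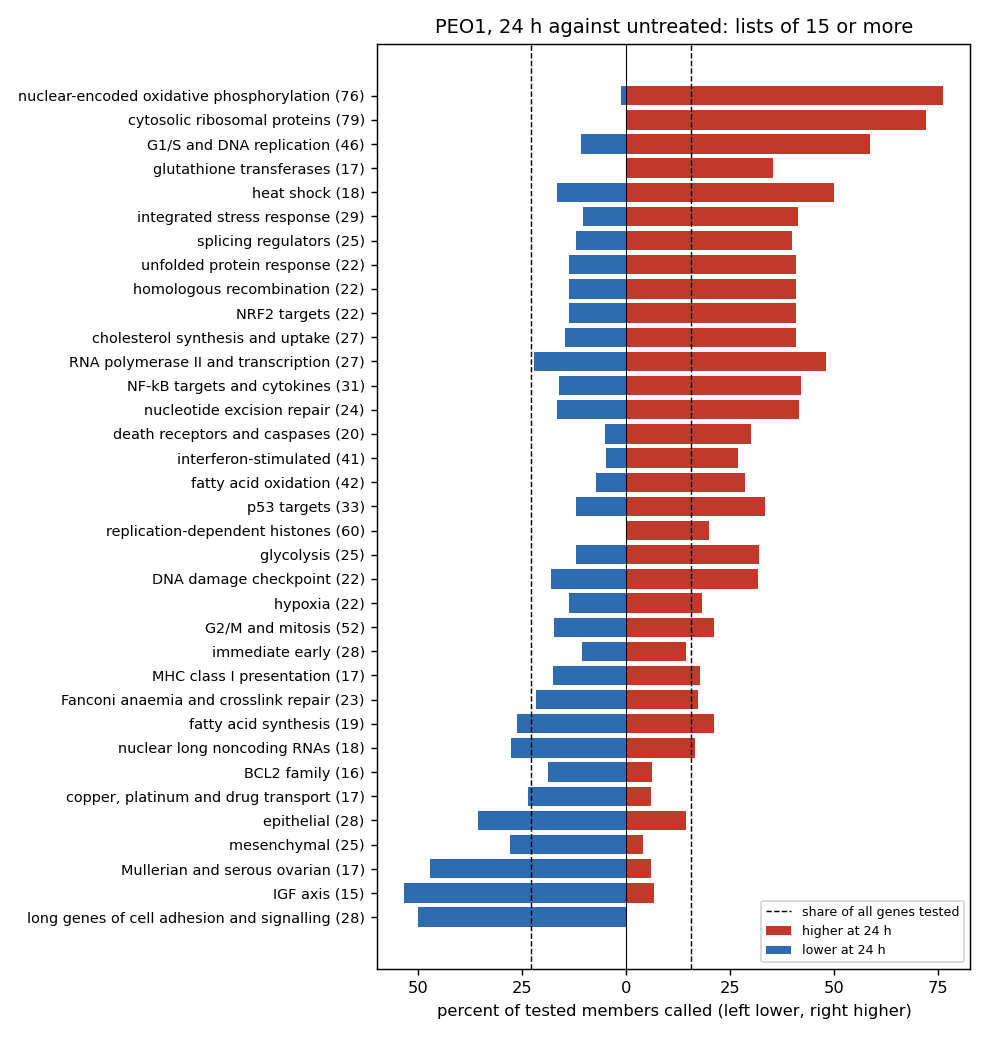
Share of each larger gene list called higher (right, red) or lower (left, blue) at 24 h, with the number of genes tested in brackets. Dashed lines are the shares of all genes tested, 15.7% and 22.9%. Short lists such as mismatch repair are not drawn. Higher calls were made for 58 of 76 oxidative phosphorylation genes and 57 of 79 ribosomal protein genes. Without rescaling, more members were called lower than higher in the lists of p53 targets, homologous recombination, G2/M, heat shock, hypoxia and fatty acid oxidation. The same held for cholesterol, glycolysis, NRF2 targets, DNA damage checkpoint, unfolded protein response, RNA polymerase II and immediate early genes, among others.

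Genes of respiratory complexes and of the ribosome were mostly higher. Of 76 nuclear genes of oxidative phosphorylation, 58 were called higher and 1 lower, with a median of 1.60, and 41 higher and 1 lower without rescaling. NDUFA12, a subunit of respiratory complex I, was at 49.4, 13.8 and 98.4 and then at 375, 411 and 306 (change 3.11 ± 0.49, adjusted p = 1.53e-05). NDUFB6, of the same complex, was at 0, 9.94 and 26.9 and then at 115, 102.6 and 90.5 (change 3.94 ± 0.75, adjusted p = 0.000136); it was listed at 0 in the first untreated library. Of 79 cytosolic ribosomal protein genes, 57 were higher and none lower, with a median of 1.39, and 48 higher and 1 lower without rescaling. RPS13 was at 382, 184 and 755 and then at 3560.3, 3965 and 2905 (change 3.19 ± 0.70, adjusted p = 0.00067), and RPS3A at 449, 362 and 741 and then at 3544, 4140.0 and 2969 (change 2.83 ± 0.50, adjusted p = 5.75e-05). The untreated libraries of these genes spread widely, with replicate 2 lowest in NDUFA12, RPS13 and RPS3A. With the sparse libraries kept in the limma model, no member of either list was called, while 9 ribosomal protein and 6 oxidative phosphorylation genes were higher at an unadjusted p under 0.05. Ribosomal protein genes have processed copies across the genome, so single values are uncertain. Neither rise was particular to 24 h or to PEO1. In the 2 PEO1 libraries at 8 h the medians against untreated were 2.60 for oxidative phosphorylation and 2.52 for ribosomal proteins. That comparison called 3141 of 18013 genes higher. At 24 h the medians were 1.90 and 1.75 in PEO4, with 1 treated library, and 1.08 and 1.06 in PEA2.

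Both lists consist of short transcripts, and the change followed transcript length over the whole table. In protein-coding genes split into 5 equal groups by the median length of their coding transcripts, the median change went from 0.29 in the shortest (up to 0.892 kb) through 0.11, -0.14 and -0.24 to -0.39 in the longest (from 3.40 kb). The 79 ribosomal protein genes had a median transcript of 0.681 kb and the 76 oxidative phosphorylation genes of 0.703 kb, against 1.80 kb for all 12607 genes with lengths. By genomic span the groups were at -0.17, -0.04, 0.12, 0.11 and -0.40, so the lowest median was that of the longest genes, from 92.9 kb. Without rescaling the medians were lower throughout and kept the same order in transcript length, from -0.22 to -0.89. The part of transcript length in the change of single lists was not tested.

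**Figure D3:**
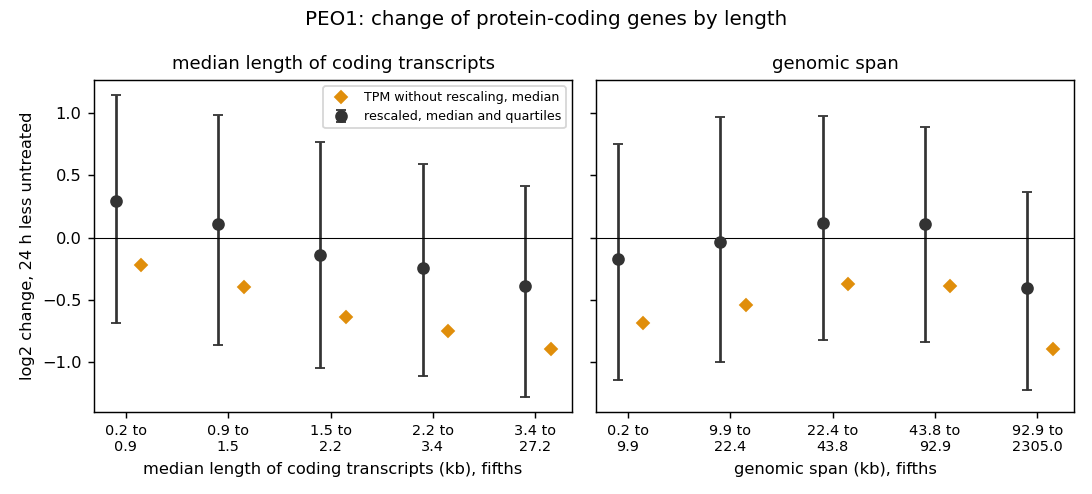
Median change at 24 h with quartiles (black, log2 scale) of protein-coding genes in 5 equal groups by transcript length (left) and genomic span (right), and the median without rescaling (orange). The medians step down with transcript length, from 0.29 to -0.39.

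The metabolic lists held genes of both directions. CPT1A, the enzyme that admits long-chain fatty acids to mitochondria for oxidation, was at 20.04, 22.8 and 17.9 in untreated and at 11.3, 11.4 and 14.5 in treated libraries. All treated libraries were below all untreated ones, but the change of -0.66 ± 0.33 was not called (adjusted p = 0.114). Without rescaling the change of CPT1A was -1.20. Of 42 fatty acid oxidation genes, 12 were higher and 3 lower with a median of 0.18, and 3 and 5 without rescaling with a median of -0.07; none was lower without untreated replicate 2, and 1 without untreated replicate 1, without treated replicate 1 or 2, or with a pseudocount of 0.1. ACAT1, the mitochondrial thiolase, rose from 6.58, 11.9 and 31.0 to 55.5, 60.8 and 55.8 (change 1.995 ± 0.45, adjusted p = 0.000895). DECR1, which prepares unsaturated fatty acids for oxidation, rose from 5.84, 4.78 and 7.66 to 20.6, 19.7 and 23.3 (change 1.66 ± 0.33, adjusted p = 0.000251).

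The regulators of lipid synthesis fell. SREBF1, the transcription factor that drives fatty acid synthesis genes, fell from 37.4, 40.3 and 17.05 to 6.57, 5.48 and 6.58 (change -2.09 ± 0.41, adjusted p = 0.000193), and SREBF2, its counterpart for cholesterol genes, from 34.2, 54.3 and 28.01 to 9.14, 7.24 and 8.21 (change -2.07 ± 0.29, adjusted p = 3.15e-06). FASN, the fatty acid synthase, fell from 245, 352 and 199.8 to 42.9, 43.5 and 50.6 (change -2.48 ± 0.42, adjusted p = 3.07e-05). MSMO1, an enzyme late in cholesterol synthesis and a target of SREBF2, was higher, at 1.82, 7.16 and 6.19 and then at 28.2, 33.4 and 24.98 (change 2.43 ± 0.50, adjusted p = 0.00033). Of 27 cholesterol genes, 11 were higher and 4 lower, 1 and 4 without rescaling, and 6 and 4 without untreated replicate 2. Of 19 fatty acid synthesis genes, 4 were higher and 5 lower, and none and 6 without rescaling; 1 was higher without untreated replicate 1, and 2 without treated replicate 1 or 2 or with a pseudocount of 0.1. The first counts of the fatty acid synthesis list lie near the shares of all genes tested, 15.7% higher and 22.9% lower. LDHB, the lactate dehydrogenase subunit, rose from 174, 99.7 and 343 to 868, 830.5 and 763 (change 2.17 ± 0.44, adjusted p = 0.000287).

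Antioxidant genes under the factor NRF2 included both TXN, the thioredoxin gene, which rose from 52.8, 53.2 and 66.0 to 334, 452 and 271 (change 2.57 ± 0.44, adjusted p = 3.78e-05), and GPX2, a glutathione peroxidase, which fell from 37.5, 33.5 and 20.7 to 0.357, 0.437 and 1.54 (change -4.17 ± 0.61, adjusted p = 5.15e-06). NQO1, a quinone reductase and common marker of NRF2, rose from 41.6, 56.4 and 54.5 to 144, 124 and 121 (change 1.34 ± 0.31, adjusted p = 0.00122). The list had 9 of 22 genes higher and 3 lower, and 2 and 4 without rescaling. The metallothionein MT1M, listed at 0 in 2 untreated libraries and at 16.1 in the remaining library, was at 26.7, 32.1 and 22.9 after treatment (change 3.44 ± 0.65, adjusted p = 0.000133); near-identical paralogues make it uncertain.

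Interferon-stimulated genes had 11 of 41 members higher and 2 lower, and 7 and 3 without rescaling. IFIT2, an antiviral protein that binds RNA, was at 4.91, 9.36 and 4.63 in untreated and 54.9, 44.0 and 54.4 in treated libraries (change 2.89 ± 0.40, adjusted p = 2.05e-06). IFI27 was listed at 0 in all untreated libraries and at 4.04, 4.32 and 9.52 at 24 h. IRF7, the regulator of type I interferon genes, fell from 41.1, 35.6 and 31.5 to 8.95, 3.92 and 7.01 (change -2.33 ± 0.46, adjusted p = 0.00022; adjusted p = 0.052 with a pseudocount of 0.1). B2M, the light chain of MHC class I, rose from 72.2, 79.6 and 138 to 789.5, 1035 and 692 (change 3.15 ± 0.48, adjusted p = 9.96e-06), but of 17 genes of MHC class I presentation 3 were higher and 3 lower, 1 and 3 without rescaling, and 7 and 3 with only the 2 groups fitted. The first counts of that list lie near the shares of all genes tested, 15.7% higher and 22.9% lower.

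The list of RNA polymerase II and transcription had 13 of 27 genes higher and 6 lower, and 7 and 9 without rescaling. POLR2A, the catalytic subunit of RNA polymerase II, fell from 48.2, 40.9 and 37.9 to 6.83, 8.25 and 7.34 (change -2.35 ± 0.26, adjusted p = 5.33e-08). The small general factor GTF2B rose from 6.51, 4.98 and 11.4 to 82.1, 95.3 and 79.8 (change 3.39 ± 0.47, adjusted p = 2.15e-06), and CDK7, the kinase of TFIIH, from 7.09, 7.76 and 18.0 to 70.1, 82.3 and 73.1 (change 2.78 ± 0.34, adjusted p = 4.08e-07). MYC, at 131, 125 and 129 and 144, 159 and 157, was not called (change 0.25 ± 0.20, adjusted p = 0.354; -0.31 without rescaling).

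Of 18 nuclear long noncoding RNAs, 5 were lower and 3 higher, with a median of -0.03, and 6 and 3 without rescaling. The first counts lie near the shares of all genes tested, 22.9% lower and 15.7% higher, whose median was -0.12. MALAT1, an abundant RNA of nuclear speckles, was at 2100.1, 2259 and 1982 in untreated and at 183, 280.2 and 211 in treated libraries (change -3.25 ± 0.37, adjusted p = 9.23e-08). NEAT1, the scaffold of paraspeckles, was at 251, 236 and 147 and then at 7.26, 8.54 and 7.06 (change -4.59 ± 0.43, adjusted p = 5.11e-09). In both RNAs every treated library was below every untreated one. The small nucleolar host genes rose: SNHG5 from 67.3, 153 and 236 to 1662, 2031 and 1485 (change 3.66 ± 0.48, adjusted p = 9.37e-07), SNHG1 by 2.84 ± 0.50 (adjusted p = 5.17e-05) and GAS5 by 2.68 ± 0.41 (adjusted p = 9.1e-06). Whether host gene reads can be told from those of the small RNAs inside them is not given in the sources used here.

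By class, 12629 protein-coding genes had a median change of -0.08, 364 long noncoding genes other than antisense had -1.06 with 19 higher and 150 lower, and 322 pseudogenes had -0.98 with 11 higher and 133 lower. The 323 antisense genes had a median of -1.39, with 6 higher and 146 lower; the libraries came from a stranded kit, but the strand setting of the counting is not given in the sources used here; reads of a gene and its antisense partner may therefore be mixed. The 137 small nucleolar and Cajal body RNAs went the other way, at 2.52, with 31 higher and none lower. Counts of olfactory receptor genes above 0, which an ovarian line is not known to use, were 22 to 46 in untreated and 17 to 21 in 24 h libraries, and the part of such background in the falls was not tested.

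Long genes and lineage genes fell as well. Of 28 long genes of adhesion and signalling, none was higher and 14 were lower, and 16 without rescaling. The homeodomain factor ZFHX3 fell from 26.3, 29.4 and 14.9 to 0.945, 1.20 and 1.26 (change -3.47 ± 0.31, adjusted p = 2.04e-09), NFIC, a nuclear factor I protein, from 40.2, 48.0 and 24.6 to 1.64, 1.93 and 3.29 (change -3.54 ± 0.38, adjusted p = 4.33e-08), and AUTS2 from 15.1, 17.8 and 9.19 to 1.03, 0.497 and 0.461 (change -3.14 ± 0.42, adjusted p = 1.38e-06). In these 3 genes the treated libraries were all at or below 3.29. ZNF750, an epithelial differentiation factor, fell from 46.4, 43.6 and 56.3 to 0.567, 0.963 and 0.163 (change -5.02 ± 0.47, adjusted p = 4.16e-09).

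Of 17 Müllerian and serous genes, 8 were lower and 1 higher, with and without rescaling, and 5 and 1 with a pseudocount of 0.1. MUC16, the mucin that carries the CA125 antigen, fell from 13.6, 29.04 and 7.56 to 0.326, 0.497 and 0.344 (change -3.49 ± 0.35, adjusted p = 1.41e-08). PAX8, the lineage factor of the Müllerian tract, fell from 69.1, 64.7 and 58.9 to 16.6, 17.04 and 17.3 (change -1.86 ± 0.25, adjusted p = 1.38e-06), and the surface protein MSLN from 68.3, 93.5 and 47.1 to 21.8, 21.7 and 16.3 (change -1.71 ± 0.42, adjusted p = 0.00188). SLPI, a secreted protease inhibitor, was the member called higher, at 41.2, 35.9 and 56.2 and then 159, 160.5 and 159 (change 1.84 ± 0.47, adjusted p = 0.00247). WT1, at 4.31, 1.88 and 1.79 and 3.39, 3.81 and 2.77, was low and was not called.

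The keratins of simple epithelium were not called. KRT7 was at 1896, 2608 and 1628 and at 1779.7, 1665 and 1709 (change -0.22 ± 0.30, adjusted p = 0.623), and KRT18 changed by -0.39 ± 0.24 (adjusted p = 0.212). KRT8 changed by -0.55 ± 0.23 (adjusted p = 0.0627), which was called as a fall without rescaling (-1.11). EPCAM, the epithelial adhesion molecule, rose from 147, 164 and 208 to 323, 320.2 and 308 (change 0.88 ± 0.21, adjusted p = 0.00154), a call lost without rescaling (0.32). KRT17, a keratin of stressed epithelium, was at 0, 0.747 and 0 and then at 7.19, 8.69 and 5.49 (change 2.73 ± 0.37, adjusted p = 1.39e-06). Of 28 epithelial genes, 4 were higher and 10 lower, and 2 and 12 without rescaling. Of 25 mesenchymal genes, 1 was higher and 7 lower, and 1 and 11 without rescaling. Of all genes tested 15.7% were higher and 22.9% lower, and the first mesenchymal count of lower genes lies near that share. The collagen COL5A1 fell from 35.1, 52.9 and 14.9 to 1.43, 1.58 and 1.56 (change -3.64 ± 0.48, adjusted p = 1.21e-06), and VIM, at 8.21, 3.78 and 2.58 and 2.25, 2.10 and 0.741, was not called.

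In the IGF axis 8 of 15 genes were lower and 1 higher, and 8 and none without rescaling. IGFBP5, an IGF-binding protein, fell from 283, 490.0 and 159.6 to 45.8, 65.2 and 57.6 (change -2.32 ± 0.37, adjusted p = 1.53e-05), and the receptor substrate IRS1 from 14.6, 20.5 and 10.1 to 3.70, 2.36 and 4.77 (change -1.79 ± 0.37, adjusted p = 0.000342). Of 9 endothelial markers tested, 5 were lower with and without rescaling, CLDN5 from 16.6, 26.1 and 18.7 to 1.32, 0.387 and 1.14 (change -3.47 ± 0.52, adjusted p = 6.16e-06) and ENG from 24.7, 28.4 and 12.6 to 3.62, 1.23 and 3.35 (change -2.61 ± 0.38, adjusted p = 4.31e-06) among them. Epithelial cells can also express both genes.

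The largest changes by the naming rule, which asked for a mean of at least 10 in a group and groups that do not overlap, included genes that no list held. GPR132, a G protein-coupled receptor known from immune cells, fell from 294, 442 and 156 to 3.44, 3.06 and 2.36 (change -6.12 ± 0.42, adjusted p = 1.8e-11), the deepest fall under that rule. TNFRSF6B, the decoy receptor for FAS ligand, fell from 82.9, 178 and 44.4 to 0.672, 2.03 and 2.41 (change -5.09 ± 0.65, adjusted p = 6.57e-07). NPIPB5 (-6.05 ± 0.69) and NUTM2B (-5.60 ± 0.45) fell almost as far, but both have near-identical copies, so their values are uncertain. Among the rises stood SEC61G, the smallest subunit of the protein channel of the endoplasmic reticulum, at 28.2, 0 and 27.4 and then 251, 317 and 195 (change 4.74 ± 0.82, adjusted p = 4.43e-05), TPRKB, of a complex that modifies transfer RNA, at 0, 8.49 and 32.8 and then 148, 170.4 and 132 (change 4.46 ± 0.74, adjusted p = 2.93e-05), and TAF13, of the general factor TFIID, at 0, 16.3 and 24.6 and then 121, 132 and 119 (change 4.03 ± 0.79, adjusted p = 0.000185). Each of these 3 was listed at 0 in 1 untreated library, although every cell is known to use such genes. RPL21, first in size, was listed at 0 in 2 untreated libraries and at 2349, 1158 and 373 at 24 h, and is uncertain for the same reason and for its many copies.

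The comparison of 24 h with 8 h asks which genes still moved between the times. In all, 39 genes were called (0.217%), 17 higher (0.0944%) and 22 lower (0.122%). Of the lists, 2 of 31 NF-kB targets and cytokines, 2 of 29 integrated stress genes and 1 of 33 p53 targets were higher at 24 h, and none of these was lower. Of the G2/M list, 10 of 52 genes were lower: CCNB1, CDC20, PLK1, HMMR, BUB1, BIRC5, CCNA2, KIF20A, DLGAP5 and PTTG1. None of the G2/M list was higher. This comparison rests on 2 libraries at 8 h, and replicate 2 stands apart, with RMRP and RPPH1 at 41.2% of TPM. Without replicate 2 the fit called 6 genes, of which 4 were among the 39 (CDC20, IFIT2, TXNIP and the nuclear receptor NR0B1), and 38 of the 39 kept their direction; the other step values named below were then not called. Without 8 h replicate 1 it called 535. The 8 h and 24 h cultures of a number share a passage per the labels, and a replicate block over those libraries, with the sparse 8 h replicate 3 in it, called none, while 396 genes had an unadjusted p under 0.05. On TPM without rescaling 163 genes were called, 161 of them higher at 24 h. Without 24 h replicate 2 the count was 25 and without 24 h replicate 3 it was 17.

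Mitotic genes share a known promoter architecture, in which the MuvB complex binds letters called CHR (TTTGAA) near CCAAT boxes bound by NF-Y. PLK1 (chr16:23678639-23678888) and CDC20 (chr1:43358731-43358980), both on the plus strand of GRCh38.p14, are shown for the same window, with both motifs on either strand in capitals.
PLK1: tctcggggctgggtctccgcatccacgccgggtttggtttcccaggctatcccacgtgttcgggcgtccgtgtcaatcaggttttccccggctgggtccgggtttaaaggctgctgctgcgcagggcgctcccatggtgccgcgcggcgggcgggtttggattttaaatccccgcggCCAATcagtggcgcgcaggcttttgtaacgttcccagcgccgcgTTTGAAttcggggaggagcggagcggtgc
CDC20: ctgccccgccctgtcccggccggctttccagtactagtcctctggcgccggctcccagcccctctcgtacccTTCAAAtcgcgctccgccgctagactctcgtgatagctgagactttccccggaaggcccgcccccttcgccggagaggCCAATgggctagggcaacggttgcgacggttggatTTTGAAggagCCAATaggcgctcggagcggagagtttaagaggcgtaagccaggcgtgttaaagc
PLK1 has CCAAT starting 73 bases and TTTGAA 29 bases upstream, and CDC20 has matches starting 178, 100, 65 and 55 bases upstream, the first of them TTTGAA on the minus strand. CCNB1, not shown, has CCAAT starting 87 and 55 bases upstream and no TTTGAA. Of the G2/M genes lower at 24 h than at 8 h, CDC20, PLK1, HMMR and DLGAP5 hold TTTGAA. CCNB1, BUB1, CCNA2, KIF20A and PTTG1 do not, and BIRC5 was not matched to a promoter. Of 44 G2/M genes with a promoter in the table, 24 hold TTTGAA (54.5%), 32 CCAAT (72.7%) and 20 both (45.5%). Of all 27305 promoters, 13.6%, 33.0% and 4.85% do. The list names mitotic genes, known for this architecture, so these shares follow from its choice. TTTGAA does not separate the members called at 24 h against untreated. CCNB2, TOP2A and KIF11, among others, hold it and were not called, and CCNB1, PLK4 and MAD2L1, among others, were called without it.

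CDC20 was at 115, 141 and 111 rescaled TPM untreated, 248 and 231 at 8 h and 78.3, 64.3 and 64.5 at 24 h. It was thus highest at 8 h, and the step from 8 h to 24 h was -1.79 ± 0.23 (adjusted p = 0.000131); without 8 h replicate 2 it was -1.84 (adjusted p = 0.00507). PLK1 was at 57.7 and 43.7 at 8 h, close to the untreated level, before 17.05, 16.1 and 16.1 at 24 h (step -1.56 ± 0.28, adjusted p = 0.00595; 0.0744 without 8 h replicate 2). CCNB1 was at 61.5, 44.6 and 92.9 untreated, 339 and 662 at 8 h and 122, 124 and 120.0 at 24 h (step -1.95 ± 0.36, adjusted p = 0.00596; 0.431 without 8 h replicate 2). HMMR, a spindle protein, was at 20.2, 30.8 and 37.0, then 121 and 183 and then 32.9, 35.2 and 36.1, so that the untreated and 24 h libraries overlapped while both 8 h libraries were above them (step -2.06 ± 0.45, adjusted p = 0.0411, not called without any one of the 24 h libraries). HSPA8, the constitutive heat shock protein, was also highest at 8 h, at 597, 500.5 and 752, 3760.5 and 4854 and 1152, 1323 and 1266 (step -1.78 ± 0.30, adjusted p = 0.00315; 0.13 without 8 h replicate 2).

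TXNIP was at 6.16 and 6.48 at 8 h, at the low end of the untreated range, and was far higher at 24 h (step 3.12 ± 0.31, adjusted p = 1.07e-06). TNFAIP3 was at 4.34 and 2.54 at 8 h, at or below every untreated library, and then climbed to 30.3, 20.5 and 37.6 (step 2.77 ± 0.41, adjusted p = 0.000737; 0.0844 without 8 h replicate 2). IFIT2 was at 4.43 and 10.9 at 8 h (step 2.69 ± 0.44, adjusted p = 0.00281). ATF3 was at 8.97 and 11.5 and GADD45A at 65.3 and 78.2, both between the untreated and the 24 h levels, with steps of 2.38 ± 0.44 (adjusted p = 0.00665; 0.0966 without 8 h replicate 2) and 1.87 ± 0.37 (adjusted p = 0.0184; 0.137 without it). PPP1R15A, the phosphatase subunit GADD34 that ends the integrated stress response, was at 43.9, 45.2 and 38.0, 32.4 and 22.3 and 104.8, 76.7 and 110.4 (step 1.80 ± 0.32, adjusted p = 0.00566). CXCL8, at 21.9 and 83.1 at 8 h, and IL6, at 36.0 and 46.2, were above every untreated library by then, and their further steps of 1.57 ± 0.47 and 1.55 ± 0.67 were not called (adjusted p = 0.177 and 0.353).

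**Figure D4:**
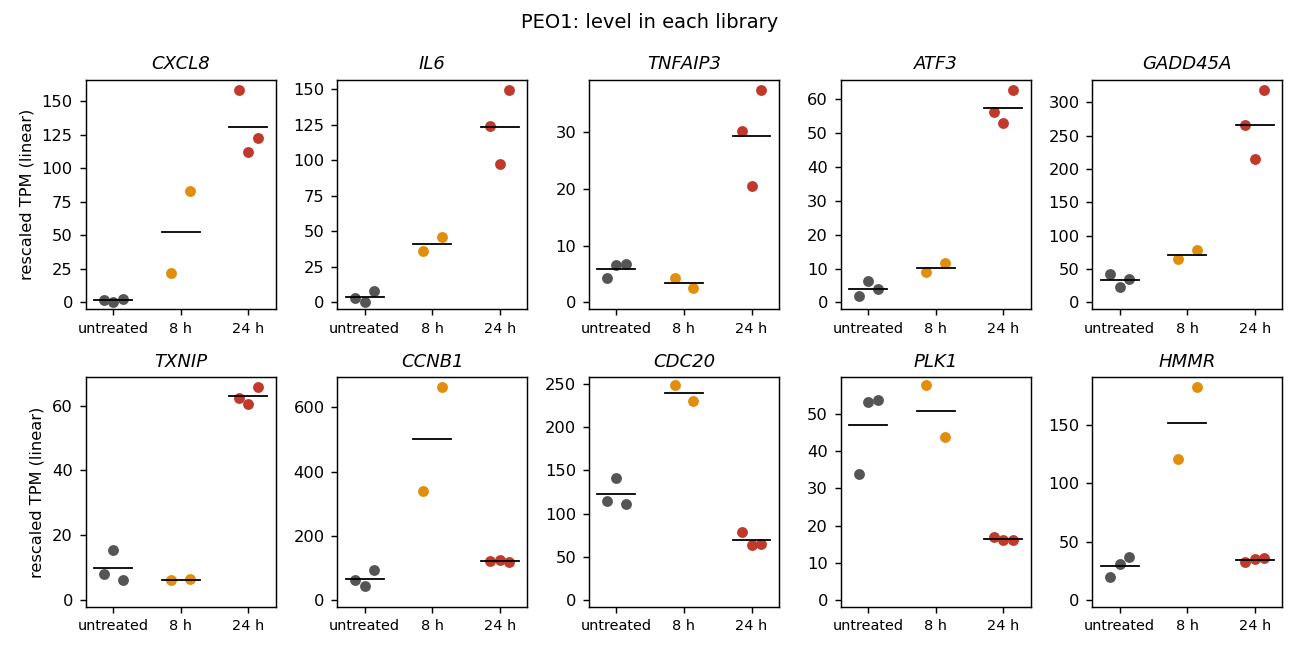
Rescaled TPM (linear axes) of 10 genes in each PEO1 library untreated, at 8 h and at 24 h, with the mean as a bar. The 6 stress and cytokine genes of CXCL8 to TXNIP are highest at 24 h, and CCNB1, CDC20 and HMMR are highest in both 8 h libraries.

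The last question is which changes differ between PEO1 and resistant lines. The difference of the 24 h change was called for 249 genes against PEO4 (1.38%), 153 with the higher change in PEO1 (0.849%) and 96 with the lower (0.533%), and for 316 genes against PEA2 (1.75%), 135 (0.749%) and 181 (1.0%). Against PEO4 it rests on 1 PEO4 library at 24 h, whose spread is taken from the rest of the model; fitted to those groups alone it called 26 genes, and the counts without 1 PEO1 library ran from 131 to 317, lowest without 24 h replicate 1. Against PEA2 they ran from 207 to 796, the highest without untreated replicate 3. In all, 35 genes were called against both lines in the same direction, 14.1% of the first list and 11.1% of the second, 25 of them with the lower change in PEO1 and 10 with the higher. Of the NF-kB targets and cytokines, 3 of 31 had a higher change in PEO1 than in PEO4 and 4 than in PEA2. Of 29 integrated stress genes the counts were 0 and 1, and of 33 p53 targets 0 and 1; no member of these 3 lists had a lower change. Both differences use the same PEO1 libraries. In the 24 h change of each line itself, 7.26% of genes were called higher and 12.7% lower in PEO4, and 4.75% higher and 12.5% lower in PEA2.

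CXCL8 was listed at 0 in all untreated PEO4 libraries and at 1.39 in the treated one, and in PEA2 it was already at 59.1, 63.5 and 39.5 before and at 283, 218 and 170.1 after treatment. The rise in PEO1 exceeded that in PEO4 by 4.43 ± 0.73 (adjusted p = 0.000791) and that in PEA2 by 3.65 ± 0.60 (adjusted p = 0.000347), although treated PEA2 cells had the higher level. With a pseudocount of 0.1 the difference from PEO4 was 2.47 (adjusted p = 0.408). TNFAIP3 was at 6.88, 3.54 and 12.6 in untreated PEO4 and at 2.42 at 24 h, and at 21.3, 23.3 and 23.3 and 22.3, 20.3 and 10.6 in PEA2; neither line's change was called, and PEO1 differed by 3.31 ± 0.64 (adjusted p = 0.00473) and 2.51 ± 0.52 (adjusted p = 0.00601). HBEGF, a ligand of the EGF receptor, rose in PEO1 from 17.8, 18.0 and 24.8 to 122, 104.9 and 142 (change 2.55 ± 0.28, adjusted p = 5.06e-08), and its change differed from that in PEO4 by 2.29 ± 0.48 (adjusted p = 0.0107) and from that in PEA2 by 1.89 ± 0.39 (adjusted p = 0.00607). Both differences in HBEGF were lost without rescaling.

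ESM1, a secreted proteoglycan, was at 5.04, 0 and 15.4 in untreated and 48.8, 38.8 and 55.8 in treated PEO1 libraries and listed at 0 in every PEO4 and PEA2 library used (difference 3.38 ± 0.83, adjusted p = 0.033, and 3.38 ± 0.68, adjusted p = 0.0042; against PEO4 adjusted p = 0.0649 and 0.074 without 24 h replicate 1 or 3). SOX9, a transcription factor of progenitor states, fell in PEO1 from 59.1, 49.2 and 54.7 to 6.43, 4.22 and 5.77 (change -3.11 ± 0.34, adjusted p = 6.94e-08). It was low in untreated PEO4, at 2.20, 1.06 and 3.76, and in PEA2 it was at 31.5, 33.9 and 37.0 before and 22.4, 25.1 and 20.9 after treatment. The difference of SOX9 was -3.18 ± 0.60 against PEO4 (adjusted p = 0.00343) and -2.54 ± 0.49 against PEA2 (adjusted p = 0.00254). HBEGF, ESM1 and SOX9 were picked after their values were seen.

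Several stress genes differed from PEA2 but were not called against PEO4. ATF3 was at 14.8, 9.81 and 8.90 in untreated and 14.1, 9.09 and 13.7 in treated PEA2 libraries, which overlap, and differed by 3.49 ± 0.56 (adjusted p = 0.000272). GADD45A differed by 2.71 ± 0.47 (adjusted p = 0.000765), TXNIP by 2.39 ± 0.40 (adjusted p = 0.000424) and IFIT2 by 2.51 ± 0.56 (adjusted p = 0.0128). IL6 differed by 3.52 ± 0.85 (adjusted p = 0.0231), but not past the threshold without untreated replicate 2 (2.64, adjusted p = 0.099) or without 24 h replicates 1 or 3 (adjusted p = 0.0544 and 0.0659). FANCC fell in all 3 lines, with changes of -5.02 ± 0.32 in PEO1, -3.79 ± 0.45 in PEO4 and -1.73 ± 0.32 in PEA2, and fell further in PEO1 than in PEA2 (-3.29 ± 0.45, adjusted p = 3.12e-05).

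**Figure D5:**
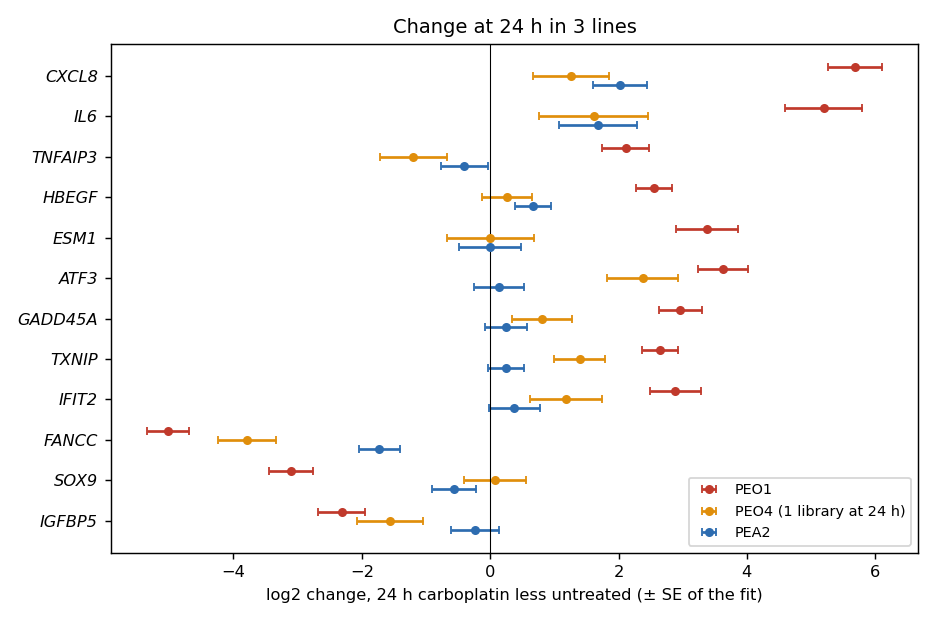
Change at 24 h (log2 scale, point) with the SE of the fit (bar) for 12 genes in PEO1, PEO4 and PEA2, where PEO4 has 1 library at 24 h. CXCL8 changed by 5.68 in PEO1, 1.25 in PEO4 and 2.03 in PEA2, and TNFAIP3 by 2.11, -1.20 and -0.40.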

How the data were processed

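RNA of 54 cultures was sequenced, and the authors deposited 1 table of gene-level TPM, the unit of all values here, for 25435 genes. The table's name points to RSEM. Per the submitters' processing notes the build was hg19 and reads were converted with bcl2fastq 2.18. The aligner, the gene models and whether counting used strand: not given in the sources used here. Per the labels' protocols, libraries were made from 200 ng of RNA with a stranded total RNA kit and read over 75 bases. Each library sums to the same total, which leaves the depth unknown.

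Of the 54 libraries, 42 with at least 12000 genes above 0 were kept. TPM were rescaled by median ratios over 8287 genes and fitted as log2(value + 1) with limma 3.58.1 in R 4.3.3, with a mean-variance trend and 1 mean per group. The 18013 genes with TPM of at least 1 in 3 libraries were tested, with Benjamini-Hochberg adjustment over all of them. In a test on simulated data the fit found most of the larger changes put in and few of the smaller, and the false share of its calls was above the threshold. Other settings kept all libraries, used only the groups compared, left out a library, blocked on the replicate number, or changed the scaling, the pseudocount or the filter.

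Of the 18 groups, those of PEO1, PEO4 and PEA2 were compared. Same-numbered untreated and 24 h libraries deviated with correlations of -0.03, -0.13 and -0.09, so these numbers do not pair them. Same-numbered 8 h and 24 h cultures share a passage per the labels, with correlations of 0.00097, 0.15 and 0.21.

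Named genes were the 15 largest rises and falls among genes with a mean of at least 10 and groups that do not overlap, up to 4 called genes per list and direction with a mean of at least 5, and a fixed set. Of 256 called genes under this rule, 54 lost the call without 1 of the 6 libraries, and most of those are not named; a few other genes under it are not reported here. Further genes of the later comparisons were chosen after their values were seen. The members and the 42 lists were chosen with earlier results of these data known. Gene classes and transcript lengths came from GENCODE 29 and RefSeq (GRCh38), which matched 24183 genes, and serve no coordinates of the files. A spreadsheet had made dates of 28 symbols, which are not named.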

Additional observations from a re-analysis of the deposited data

Results flagged for a closer look

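Genes named in the report whose change at 24 h differed between PEO1 and another line, by the interaction term of the limma fit over all genes, are gathered here with the change in PEO1 less that in the other line, its SE and the adjusted p. Against PEO4, with 1 library at 24 h, these were CXCL8 (4.43 ± 0.73, adjusted p = 0.000791), TNFAIP3 (3.31 ± 0.64, adjusted p = 0.00473), HBEGF (2.29 ± 0.48, adjusted p = 0.0107), ESM1 (3.38 ± 0.83, adjusted p = 0.033) and SOX9 (-3.18 ± 0.60, adjusted p = 0.00343). Against PEA2 they were CXCL8 (3.65 ± 0.60, adjusted p = 0.000347), IL6 (3.52 ± 0.85, adjusted p = 0.0231), TNFAIP3 (2.51 ± 0.52, adjusted p = 0.00601), ATF3 (3.49 ± 0.56, adjusted p = 0.000272), GADD45A (2.71 ± 0.47, adjusted p = 0.000765), FANCC (-3.29 ± 0.45, adjusted p = 3.12e-05), TXNIP (2.39 ± 0.40, adjusted p = 0.000424), KRT17 (2.13 ± 0.52, adjusted p = 0.0239), IFIT2 (2.51 ± 0.56, adjusted p = 0.0128), IGFBP5 (-2.08 ± 0.52, adjusted p = 0.029), HBEGF (1.89 ± 0.39, adjusted p = 0.00607), ESM1 (3.38 ± 0.68, adjusted p = 0.0042) and SOX9 (-2.54 ± 0.49, adjusted p = 0.00254). The untreated levels of the lines also differed, and the part of the starting level in these differences was not tested. ESM1 is listed at 0 in every PEO4 and PEA2 library used, so its difference repeats its change in PEO1. IGFBP5 and KRT17 were likewise near 0 in PEA2. Groups of 3 libraries are too small for a test of single outlying libraries, and none was made.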

How the results depend on the processing

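Of the called genes examined singly, 94 kept the call and 9 lost it without rescaling, 1 lost it with a pseudocount of 0.1, 0 with upper quartile scaling, with no filter or with a stricter filter, and 0 to 3 without 1 library. With all 54 libraries 28 kept it and 75 lost it, and none reversed. The range without 1 library is low in part by choice, since most genes that lost the call that way are not named. Among all 256 called genes under the naming rule, 54 lost it without 1 of the 6 libraries. The count of genes changed at 24 h was 614 with all 54 libraries, and without 1 library it ran from 5422 to 7027. A replicate block over the 6 libraries, which share only a number, called 6799 genes, 3395 higher and 3404 lower, with CDC20 at an adjusted p of 0.0541.

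For 24 h against 8 h the count was 5 with all 54 libraries, 2 with only the groups compared, 163 without rescaling, 0 with a replicate block (396 at an unadjusted p under 0.05) and 17 to 535 without 1 library other than 8 h replicate 2, where it was 6; with 8 h replicate 3 added, 487. The last alternatives at 8 h were chosen after seeing the data. For the difference from PEO4 the count was 60 with all libraries, 26 with only the groups compared and 131 to 317 without 1 library. For the difference from PEA2 it was 46, 478 and 207 to 796, and 126 with a pseudocount of 0.1. The cause of these shifts was not tested.

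Among the genes examined singly, signs turned only in those not called, and in PTTG1. Without rescaling GDF15 was at -0.011, BRCA1 at -0.41, WT1 at -0.12, ATP7A at -0.12 and MYC at -0.31. Of 16 genes examined singly and not called at 24 h, 4 were called without rescaling, ERCC1 and KRT8 among them. In that setting CPT1A was at -1.20, VIM at -1.54, ATP7B at -1.19 and KRT18 at -0.95. With all 54 libraries KRT7 was at 0.036. Without 1 library GDF15 ran from -0.28 to 0.40, BRCA1 from -0.038 (untreated replicate 2) to 0.30 and ATP7A from -0.050 (24 h replicate 2) to 0.32. The step of PTTG1 from 8 h to 24 h was 1.31 with all libraries, 1.20 with only the groups compared and with the block, and 1.35 with 8 h replicate 3 added. In that last setting 37 of the 39 genes called for 24 h against 8 h kept their sign. Besides PTTG1, KNSTRN turned, from -1.58 to 0.86. TPM keeps no depth, so no limit of detection can be given for genes listed at 0.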
